A study of Homo sapiens with 6 samples.

Results

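Wnt proteins are secreted, lipid-modified signals that reach neighbouring cells through Frizzled receptors, which span the membrane and recruit Dishevelled inside the cell. With the co-receptors LRP5 or LRP6 they stabilise beta-catenin, the coactivator of TCF and LEF transcription factors. With ROR1, ROR2 or RYK they drive pathways that do not use beta-catenin, for which WNT5A and WNT5B are the usual ligands. Secreted antagonists act outside the cell: the Dickkopf protein DKK1 binds LRP5 and LRP6, while SFRP proteins, FRZB and WIF1 bind the Wnt ligands themselves. Wnt signalling has been linked to the activation of hepatic stellate cells, the liver cells that make scar matrix.

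The genes described are the 19 WNT ligands, 10 Frizzleds, 5 co-receptors and 10 secreted antagonists that were selected from the expression table by their symbols, 44 of its 60669 genes. They were measured in LX-2, an established human cell line derived from activated hepatic stellate cells, of wild-type genotype per the labels. Cells received 1 siRNA against ADAMTS12 (siADAMTS12), a gene for a secreted metalloprotease, or a negative control siRNA (siCTL), both by lipid transfection for 48 h, with 3 libraries in each group. The labels do not tell whether the libraries are separate cultures; the p-values therefore reflect library-to-library spread, which may be technical. Of the 44 genes, 23 reached a mean of 10 in normalized counts across the 6 libraries and were tested. The lowest of these was WNT2B with a mean of 11.5, and the highest of the 21 left out was WNT10A with 5.17.

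The deposited values summed to 30678468 to 31415206 in the siADAMTS12 libraries and 33576945 to 34072515 in the siCTL libraries; these sums follow the scaling and are not read depths. ADAMTS12 itself stood at 4083, 3449 and 3687 in the siADAMTS12 libraries and at 13709, 12235 and 13423 in the siCTL libraries, so 28.5% was left. Of 12 stellate cell and myofibroblast markers, 9 passed the minimum, while LRAT was at 0 in every library and DES was near 0. Among the 9, PDGFRB, VIM and TAGLN fell in siADAMTS12 cells (log2 fold changes -0.80, -0.55 and -0.58) and LHX2 rose (0.45). ACTA2, COL1A1, COL1A2, COL3A1 and HAND2 did not pass the same test (limma). Markers of hepatocytes and macrophages were scarce. The 7 hepatocyte markers summed to 22 to 28 in siADAMTS12 libraries and 17 to 19 in siCTL libraries, and the 6 macrophage markers to 38 to 51 and 36 to 61. The 5 endothelial markers summed to 65 to 79 in siADAMTS12 libraries and 139 to 157 in siCTL libraries, most of it KDR, and the 4 cholangiocyte markers to 1733 to 2071 and 1874 to 2232, most of it SOX9.

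The siRNA is shown first because the bases at positions 2 to 8 of its guide strand, the seed, can also pair with other transcripts. The sense strand is from the labels and the guide is its reverse complement; capitals mark the seed and the bases that pair with it. The 19 bases of the sense strand lie in ADAMTS12 at chr5:33637728-33637746 on the minus strand of GRCh38, in the coding part of exon 12. The seed match GAGGGAA was searched in the 3' UTR of 1 transcript per gene, on the transcript strand. The sites in ROR1 and FZD5 are shown because they are the only such matches among the 23 tested genes. The FZD4 sites are shown because its 3' UTR held 5 copies of the shorter match to positions 2 to 7, AGGGAA, and no copy of the longer one; here capitals mark the shorter match.
siADAMTS12 sense: gccaaaguuugGAGGGAAa
siADAMTS12 guide: uUUCCCUCcaaacuuuggc
ROR1 3' UTR site: tgaaaccctgGAGGGAAatgagccata
FZD5 3' UTR site: gacttggagaGAGGGAAgaggggcgtt
FZD4 3' UTR site 1: agttttataaAGGGAActgaggacag
FZD4 3' UTR site 2: attggttagtAGGGAAtaaagtgtag
FZD4 3' UTR site 3: aaaaataggaAGGGAAgctttttttt
FZD4 3' UTR site 4: cctcagggcaAGGGAAcatgggggta
FZD4 3' UTR site 5: agctgcagttAGGGAAgggagccatt

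The ROR1 match lies at chr1:64179398-64179404 on the plus strand, and its surrounding bases extend the pairing to 10 contiguous bases of the guide. The FZD5 match, at chr2:207766849-207766855 on the minus strand, pairs with 7 contiguous bases. The longer match was present in 15.7% of the 3' UTRs of the 12728 tested genes that were searched, in 30.9% of the searched genes that fell and in 11% of the searched genes that rose. The median 3' UTR length was 1138 bases over all genes searched, 1668.5 in those that fell and 1292 in those that rose. The shares were not adjusted for length. Of the 23 Wnt genes 2 carried the longer match, and of the 7 that fell 1 did. The shorter match was in 10 of the 23 genes, against 41.4% of all genes searched, and 5 or more copies were in 2.39% of all genes searched. The FZD4 3' UTR is 5463 bases long. Counting copies inside the longer match, LRP6 and ROR1 held 4, FZD1 held 3, and FZD5 and FZD7 held 2. FZD3, ROR2, SFRP1 and WNT10B held 1. LRP6, FZD1, FZD3, FZD5, FZD7 and WNT10B did not pass the test. Of the 7 that fell 4 held the shorter match (57.1%), against 61.5% of all searched genes that fell. A match of letters is a description and not a site of binding.

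In siADAMTS12 cells the ligand WNT5B, the receptor FZD4, the co-receptors ROR1 and ROR2 and the antagonists DKK1, DKK3 and SFRP1 were lower than in siCTL cells, and the co-receptor LRP5 was higher. Of the 23 genes tested, 7 fell and 1 rose (limma, adjusted p under 0.05). Over all 15637 genes tested, 15.5% fell and 11.5% rose, 27.0% in either direction. The median log2 fold change was -0.08 over the 23 genes and 0.01 over all genes. The ranges of the 2 groups stood apart in 9 of the 23 genes, against 40.9% of all genes. All 8 calls were kept under each of the 13 other fits tried, and the count that rose was 2 without siADAMTS12 replicate 2 or without siCTL replicate 2. The falls of DKK1, DKK3 and SFRP1 were smaller after quantile normalization. Less RNA per cell and fewer cells expressing a gene cannot be told apart in these bulk samples.

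**Figure D1:**
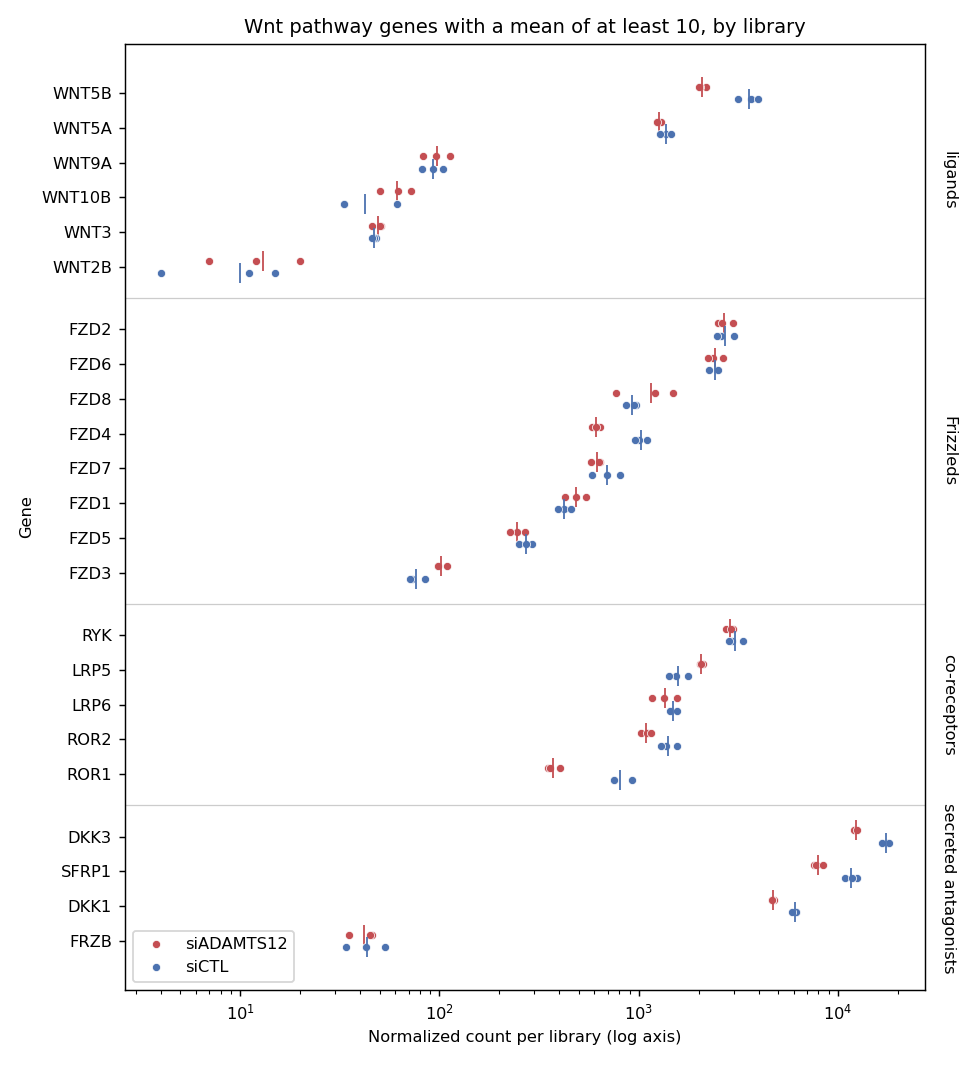
Normalized count of each tested Wnt pathway gene (log axis) in the 3 siADAMTS12 libraries (upper row of points) and the 3 siCTL libraries (lower row), with ticks at the group means. The points of the 2 groups stand apart for WNT5B, FZD4, FZD3, ROR1, ROR2, LRP5, DKK1, DKK3 and SFRP1.

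Among the ligands, WNT5B (ENSG00000111186, chr12:1529891-1647243, plus strand) was the most abundant per length. Its normalized counts were 2185, 2027 and 2015 in the siADAMTS12 libraries and 3666, 3965 and 3154 in the siCTL libraries. Every siADAMTS12 library lay below every siCTL library, and the mean was 2076 ± 94.9 in siADAMTS12 cells and 3595 ± 410 in siCTL cells (SD, n = 3 each). The fall was 1.73-fold, with a log2 fold change of -0.79 ± 0.08 (SE, adjusted p = 3.8e-05 by limma). Its 3' UTR held neither form of the seed match.

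WNT5A (ENSG00000114251, chr3:55465715-55490539, minus strand), the close relative of WNT5B, had 1236, 1301 and 1243 in the siADAMTS12 libraries and 1371, 1453 and 1285 in the siCTL libraries. The groups overlapped, because the second siADAMTS12 library lay above the lowest siCTL library. Its log2 fold change of -0.12 had a 95% interval from -0.27 to 0.03 (adjusted p = 0.228). The ratio of WNT5B to WNT5A counts was 1.77, 1.56 and 1.62 in the siADAMTS12 libraries and 2.67, 2.73 and 2.45 in the siCTL libraries. The log2 ratio differed by -0.67, and the exact 2-sided permutation p was 0.1, the smallest that 3 against 3 libraries allow (0.1 adjusted over the 3 ratios compared here). The 3 pairs were not among the planned tests, and no other pairs were formed. Each holds a gene called in the main test, so the ratios are not separate evidence.

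The other 4 ligands tested were scarce and none passed the test. WNT9A averaged 97.3 ± 15.0 in siADAMTS12 cells and 93.0 ± 11 in siCTL cells, WNT3 49.0 ± 2.65 and 47.0 ± 1.00, and WNT2B 13.0 ± 6.56 and 10.0 ± 5.57 (SD, n = 3 each). WNT10B had 72, 50 and 62 in the siADAMTS12 libraries and 33, 61 and 33 in the siCTL libraries, where the second library stood among the siADAMTS12 values. Its log2 fold change was 0.57, with a 95% interval from -0.00 to 1.14 (adjusted p = 0.131); without siCTL replicate 2 it was 0.86 with adjusted p = 0.0256. WNT2B shares 2661 exonic bases with ST7L on the opposite strand, which averaged 509 in siADAMTS12 cells and 477 in siCTL cells, so reads of WNT2B are uncertain where the counting did not use strand.

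Levels of different genes were set beside each other per kb of exon. WNT5B averaged 482 ± 22.0 normalized counts per kb in siADAMTS12 cells and 835 ± 95.3 in siCTL cells, and WNT5A averaged 170 ± 4.82 and 185 ± 11.4. WNT9A and WNT10B came next, with overlapping ranges in both groups, then WNT3 and WNT2B. WNT5B made up 67.3% ± 0.643 of the summed level of all 19 ligands per kb in siADAMTS12 cells and 77.5% ± 1.13 in siCTL cells, and WNT5A made up 23.8% ± 1.3 and 17.2% ± 0.759. The summed ligand level was 716 ± 26.2 per kb in siADAMTS12 cells and 1077 ± 112 in siCTL cells.

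Of the 13 ligands below the minimum, WNT3A and WNT9B were at 0 in every library. WNT10A, WNT4, WNT7B, WNT11, WNT6 and WNT7A had means from 1 to 5.17 over the 6 libraries. WNT1, WNT2, WNT8A, WNT8B and WNT16 had means under 1. WNT7A had 0 in all 3 siADAMTS12 libraries and 3, 1 and 2 in the siCTL libraries. These values are at the limit of what libraries of this size resolve.

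FZD4 was the only Frizzled of the 8 tested that passed the test. FZD4 (ENSG00000174804, chr11:86945679-86955391, minus strand), also known as a receptor for norrin, had 641, 580 and 614 in the siADAMTS12 libraries and 1107, 1009 and 959 in the siCTL libraries. All siADAMTS12 values lay below all siCTL values, with means of 612 ± 30.6 in siADAMTS12 cells and 1025 ± 75.3 in siCTL cells (SD, n = 3 each). The fall was 1.67-fold, with a log2 fold change of -0.74 ± 0.08 (SE, adjusted p = 4.6e-05 by limma). The gene shares 1399 exonic bases with PRSS23, a serine protease gene on the opposite strand. PRSS23 also fell, to 12983 ± 570 in siADAMTS12 cells, against 17593 ± 1376 in siCTL cells (log2 fold change -0.44, adjusted p = 0.00091; -0.27 after quantile normalization, where it also passed). The libraries were stranded, but the strand setting of the counting is not given in the sources used here, and the part of PRSS23 reads in the FZD4 value was not tested.

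The most abundant Frizzleds, FZD2 and FZD6, had means that nearly coincided. FZD2 had 2503, 2609 and 2973 in the siADAMTS12 libraries and 2605, 3007 and 2489 in the siCTL libraries, and its log2 fold change was -0.00 with a 95% interval from -0.19 to 0.19. FZD6 averaged 2415 ± 224 in siADAMTS12 cells and 2414 ± 127 in siCTL cells, with an interval from -0.17 to 0.17. The intervals leave room for changes of that size.

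FZD8 had 1210, 769 and 1489 in the siADAMTS12 libraries and 968, 947 and 866 in the siCTL libraries. The siADAMTS12 libraries spread on both sides of the siCTL values, and the second one was the lowest of all 6. The log2 fold change was 0.27 with adjusted p = 0.309, and it was 0.54 with adjusted p = 0.00269 without siADAMTS12 replicate 2. FZD3 had 98, 109 and 98 in the siADAMTS12 libraries and 73, 71 and 85 in the siCTL libraries. The groups did not overlap, but the log2 fold change of 0.41 did not pass (adjusted p = 0.064), and it passed in a fit without the intensity trend (adjusted p = 0.0296).

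FZD7, FZD1 and FZD5 completed the Frizzleds tested, with overlapping groups and adjusted p of 0.323, 0.215 and 0.365. FZD7 averaged 617 ± 32.7 in siADAMTS12 cells and 695 ± 115 in siCTL cells, FZD1 485 ± 59.6 and 424 ± 32.0, and FZD5 246 ± 21.5 and 272 ± 19.5 (SD, n = 3 each). FZD5, which carries a longer seed match, had a log2 fold change of -0.14 with a 95% interval from -0.38 to 0.10. FZD9 had a mean of 1 over the 6 libraries and FZD10 was at 0 in all of them.

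Per kb of exon, FZD2 led with 1276 ± 117 in siADAMTS12 cells and 1279 ± 129 in siCTL cells, followed by FZD6 with 594 ± 55.1 and 594 ± 31.2. FZD8, FZD7, FZD4, FZD1, FZD5 and FZD3 followed in this order in both groups. Neighbours in the order did not overlap between libraries of a group, but the gap between FZD4 and FZD1 was small in siADAMTS12 cells (78.6 against 78.4 per kb at the nearest libraries), as was that between FZD7 and FZD4 in siCTL cells (150.6 against 149.9). FZD4 made up 3.30% ± 0.243 of the summed Frizzled level per kb in siADAMTS12 cells and 5.51% ± 0.484 in siCTL cells. The summed level was 2514 ± 147 per kb in siADAMTS12 cells and 2529 ± 200 in siCTL cells. FZD2 shares 2.67% of its 50-base sequences with transcripts of other genes, mainly FZD1 and FZD7, and no other tested Wnt gene shares more than 1.1%.

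**Figure D2:**
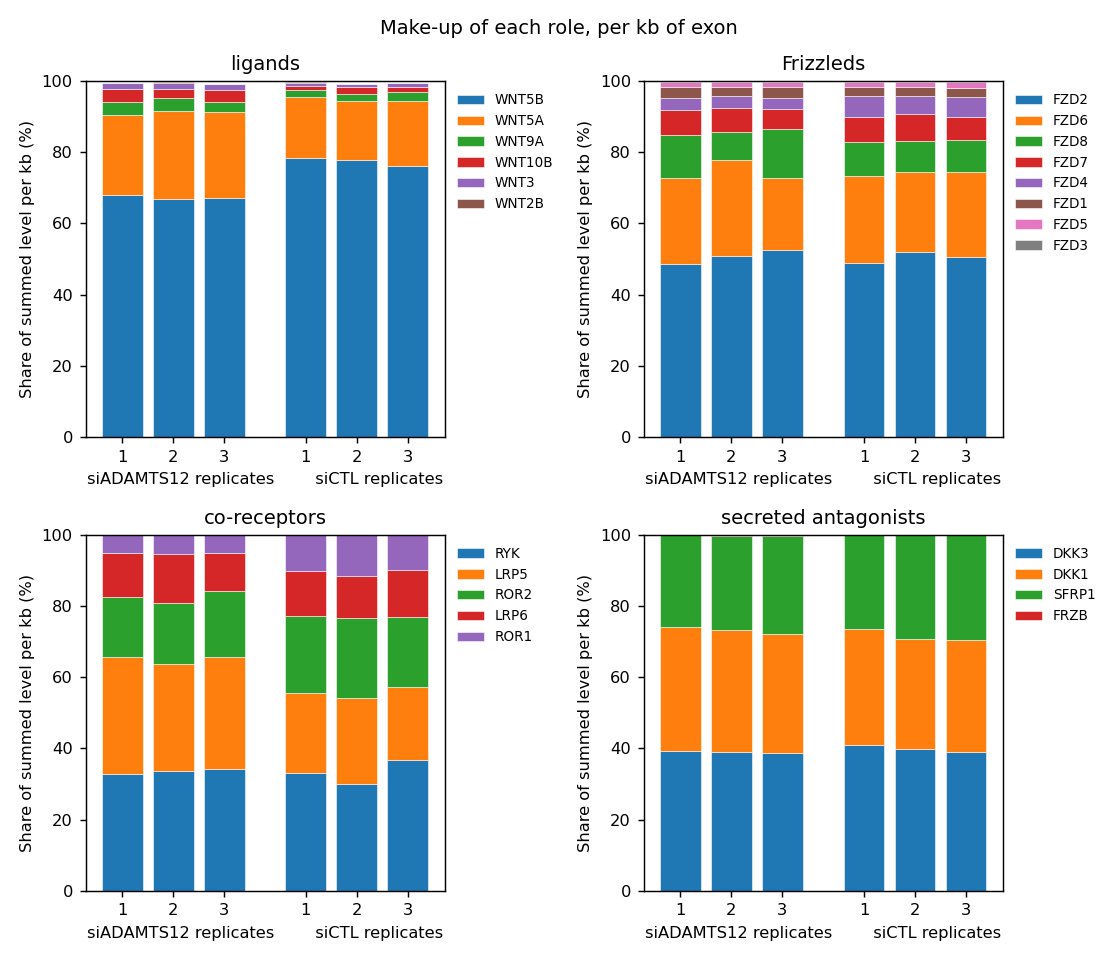
Share of each gene in the summed normalized count per kb of exon of its role, in percent, for the 3 siADAMTS12 libraries (left bars) and the 3 siCTL libraries (right bars). The space above the bars is genes with a mean under 10; WNT5B takes 67.3% of the ligand level in siADAMTS12 cells and 77.5% in siCTL cells, and FZD2 takes 50.7% and 50.5% of the Frizzled level.

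ROR1 had the largest fall of the 23 genes. ROR1 (ENSG00000185483, chr1:63774022-64181498, plus strand), a receptor tyrosine kinase-like protein that binds WNT5A, had 350, 401 and 360 in the siADAMTS12 libraries and 753, 923 and 750 in the siCTL libraries. The highest siADAMTS12 value was far below the lowest siCTL value. The mean was 370 ± 27.0 in siADAMTS12 cells and 809 ± 99.0 in siCTL cells (SD, n = 3 each), a 2.17-fold fall with a log2 fold change of -1.12 ± 0.10 (SE, adjusted p = 1.2e-05 by limma). ROR1 is the only one of the 7 genes that fell whose 3' UTR holds the longer seed match. In its 3' UTR the match is of the 8-base form GAGGGAAA, which was in 6.14% of all genes searched and in 16% of those that fell.

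ROR2 (ENSG00000169071, chr9:91563091-91950162, minus strand), the other member of its family, had 1031, 1102 and 1150 in the siADAMTS12 libraries and 1379, 1558 and 1291 in the siCTL libraries. The groups did not overlap, and the fall was 1.28-fold (log2 fold change -0.36 ± 0.08 SE, adjusted p = 0.0069). Its 3' UTR held 1 copy of the shorter seed match. The ratio of ROR1 to ROR2 counts was 0.340, 0.364 and 0.314 in the siADAMTS12 libraries and 0.546, 0.593 and 0.581 in the siCTL libraries. The log2 ratio differed by -0.76 (exact 2-sided permutation p = 0.1, the smallest possible; 0.1 adjusted over 3 ratios). RYK, a catalytically inactive kinase-like Wnt receptor, had 2741, 2962 and 2925 in the siADAMTS12 libraries and 2940, 2857 and 3361 in the siCTL libraries. These overlapped, and the log2 fold change of -0.08 had an interval from -0.24 to 0.08.

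LRP5 was the single gene of the 23 that rose. LRP5 (ENSG00000162337, chr11:68312609-68449275, plus strand), a co-receptor for beta-catenin signalling, had 2114, 2036 and 2052 in the siADAMTS12 libraries and 1546, 1775 and 1427 in the siCTL libraries. All siADAMTS12 values lay above all siCTL values, and the rise was 1.31-fold (log2 fold change 0.39 ± 0.08 SE, adjusted p = 0.00388 by limma). LRP6, its close relative, had 1336, 1555 and 1168 in the siADAMTS12 libraries and 1462, 1432 and 1557 in the siCTL libraries. LRP6 overlapped between groups, with a log2 fold change of -0.14 and an interval from -0.35 to 0.07 (adjusted p = 0.301); without siADAMTS12 replicate 2 it was -0.25 with adjusted p = 0.0475.

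The ratio of LRP5 to LRP6 counts was 1.58, 1.31 and 1.76 in the siADAMTS12 libraries and 1.06, 1.24 and 0.917 in the siCTL libraries. The ratios did not overlap and the log2 ratio differed by 0.53 (exact 2-sided permutation p = 0.1, the smallest possible; 0.1 adjusted over 3 ratios). Per kb of all annotated exons, RYK and LRP5 overlapped at the top of the co-receptors in siADAMTS12 cells, with 357 ± 14.7 and 335 ± 6.68. The lengths used were 8047 bases for RYK and 6164 for LRP5, and other lengths could change this order. In siCTL cells RYK stood at 379 ± 33.6, above LRP5 at 257 ± 28.7, and LRP5 overlapped with ROR2 at 242 ± 23.4. LRP6 and ROR1 were the lowest in both groups. LRP5 made up 31.5% ± 1.41 of the summed co-receptor level in siADAMTS12 cells and 22.4% ± 1.93 in siCTL cells, and ROR1 made up 5.17% ± 0.239 and 10.5% ± 0.928.

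**Figure D3:**
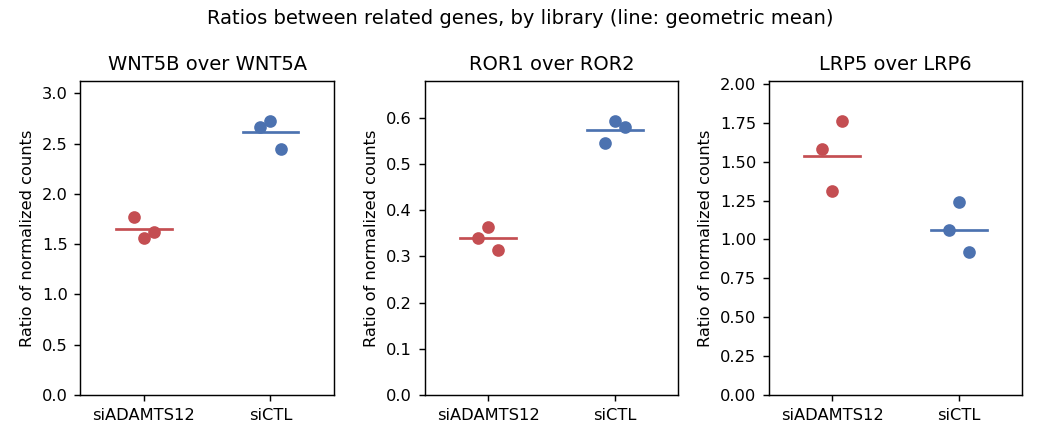
Ratio of the normalized counts of 3 pairs of related genes, not corrected for length, in each of the 3 siADAMTS12 libraries (left) and 3 siCTL libraries (right), with lines at the geometric means. The groups do not overlap in any of the pairs: WNT5B over WNT5A and ROR1 over ROR2 are lower, and LRP5 over LRP6 is higher, in the siADAMTS12 libraries. WNT5B, ROR1 and LRP5 were each called on their own, so the ratios are not separate evidence.

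Of the 4 tested genes grouped as secreted antagonists by their symbols, 3 fell, against 15.5% of all 15637 genes tested. DKK3 (ENSG00000050165, chr11:11963106-12009769, minus strand), a divergent Dickkopf protein, had 12376, 12096 and 12471 in the siADAMTS12 libraries and 17835, 18089 and 16671 in the siCTL libraries. The groups did not overlap, and the fall was 1.42-fold (log2 fold change -0.51 ± 0.06 SE, adjusted p = 8.8e-05). DKK1 (ENSG00000107984, chr10:52314296-52318042, plus strand), which blocks LRP5 and LRP6, had 4757, 4667 and 4688 in the siADAMTS12 libraries and 6193, 6144 and 5863 in the siCTL libraries. Each siADAMTS12 library was again below each siCTL library, and the fall was 1.29-fold (log2 fold change -0.37 ± 0.06 SE, adjusted p = 0.000507).

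SFRP1 (ENSG00000104332, chromosome 8, minus strand), a secreted Frizzled-related protein, had 7597, 7730 and 8433 in the siADAMTS12 libraries and 10815, 12438 and 11812 in the siCTL libraries. The values did not overlap, and the fall was 1.47-fold (log2 fold change -0.56 ± 0.07 SE, adjusted p = 0.000135). After quantile normalization the log2 fold change was -0.35 for DKK3, -0.25 for DKK1 and -0.41 for SFRP1, smaller falls that still passed. FRZB, another protein of the SFRP family, was scarce, with 42.0 ± 6.08 in siADAMTS12 cells and 43.3 ± 9.50 in siCTL cells (SD, n = 3 each). Its log2 fold change of -0.03 had an interval from -0.53 to 0.47. DKK4, SFRP2, SFRP5 and WIF1 were at 0 in all 6 libraries, and DKK2 and SFRP4 had means under 1.

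Per kb, DKK3, DKK1 and SFRP1 were the most abundant of all 44 genes and kept this order in both groups. DKK3 averaged 2434 ± 38.5 per kb in siADAMTS12 cells and 3465 ± 149 in siCTL cells, DKK1 2132 ± 21.3 and 2750 ± 80.7, and SFRP1 1664 ± 94.4 and 2455 ± 172. The summed level of the 10 antagonists was 6243 ± 119 per kb in siADAMTS12 cells and 8684 ± 278 in siCTL cells. DKK3 took 39.0% ± 0.372 of it in siADAMTS12 cells and 39.9% ± 0.950 in siCTL cells. These sums use the deposited scaling and were not recomputed after quantile normalization. The antagonists, DKK3 among them, were grouped by symbol, and whether their sum reflects Wnt inhibition was not tested. The 3' UTRs of DKK1 and DKK3 held neither form of the seed match, and that of SFRP1 held the shorter one.

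**Figure D4:**
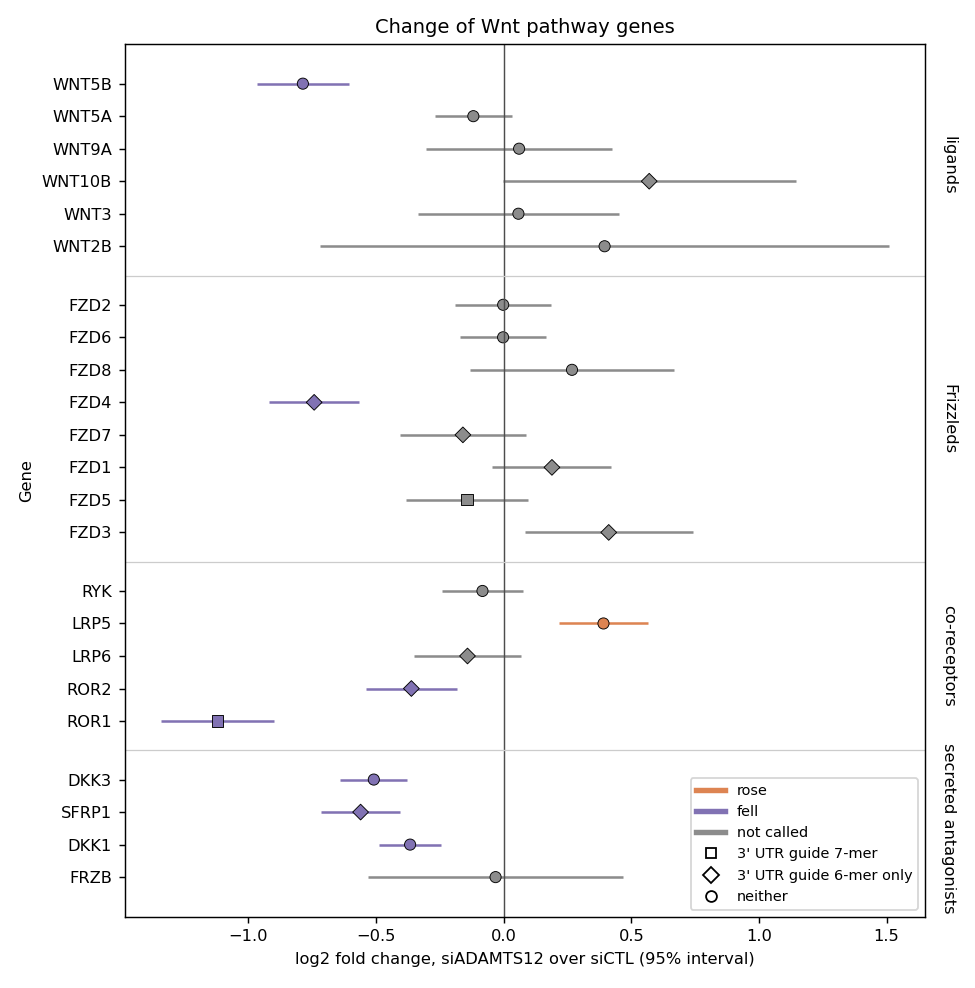
Log2 fold change of siADAMTS12 over siCTL with its 95% interval for the 23 tested genes, coloured by call, with squares for a 3' UTR match to guide positions 2 to 8 and diamonds for a match to positions 2 to 7 only. ROR1 (-1.12) lies farthest left and carries the longer match. FZD5 (-0.14) also carries it and was not called. WNT5B (-0.79), DKK3 (-0.51) and DKK1 (-0.37) fell without either match.

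The other genes of the pathway were read from 6 lists by the steps they serve, and against the 15.5% of all genes that fell and 11.5% that rose. Of 13 tested genes for Wnt secretion and ligand modification, 4 fell and 3 rose, with a median log2 fold change of 0.00. GPC1, a glypican that carries heparan sulfate, rose to 13977 ± 211 in siADAMTS12 cells, against 9209 ± 884 in siCTL cells (adjusted p = 9.8e-05). TRABD2A, a protease that inactivates Wnt ligands, fell to 1336 ± 67.6 in siADAMTS12 cells, against 1988 ± 58.1 in siCTL cells (adjusted p = 6.5e-05). The vesicle genes SEC22B and TMED2 fell by log2 values of 0.53 and 0.33, and the retromer subunit VPS29 rose by 0.28. After quantile normalization the log2 fold change of TMED2 was -0.18 (adjusted p = 0.0477). PORCN, the enzyme that attaches the lipid to Wnt proteins, rose by 0.35 (adjusted p = 0.0147), but did not pass without siADAMTS12 replicate 1 (0.0579), siADAMTS12 replicate 3 (0.0617) or siCTL replicate 2 (0.054). The 3' UTR of PORCN, which rose, held 1 copy of the longer seed match.

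Of 11 tested genes for R-spondins, LGR receptors and surface modulators, 2 fell and 0 rose at the adjusted threshold. KREMEN1, a receptor for Dickkopf proteins that removes LRP6 from the surface, had the largest fall of the 6 lists, to 141 ± 24.4 in siADAMTS12 cells, against 371 ± 39.9 in siCTL cells (2.63-fold, log2 fold change -1.39 ± 0.14 SE, adjusted p = 2.7e-05). The 3' UTR of KREMEN1 held 2 copies of the longer seed match. PTK7, a planar polarity co-receptor, was at -0.26 (adjusted p = 0.0333) and carried 1 copy. It did not pass without siADAMTS12 replicate 2 (0.0534), siADAMTS12 replicate 3 (0.132), siCTL replicate 1 (0.0905) or siCTL replicate 2 (0.124), nor after quantile normalization (0.222), with no intensity trend (0.116) or with no minimum mean (0.0645). The count that fell was 1 without siADAMTS12 replicate 2, siADAMTS12 replicate 3 or siCTL replicate 1, and the count that rose was 1 without siCTL replicate 1 and with the replicate number as a block. RSPO3, named after its values were seen, was below the minimum and not tested, with means of 3.33 in siADAMTS12 cells and 11.7 in siCTL cells.

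Of 26 tested genes for Dishevelled and the beta-catenin destruction complex, 8 rose and 3 fell. The casein kinase 1 genes CSNK1E (log2 fold change 0.38), CSNK1D (0.31) and CSNK1G3 (0.24) rose, while CSNK1G1 fell (-0.50, adjusted p = 0.00011). CSNK1G2 (-0.24, adjusted p = 0.0426) and CSNK1A1 (-0.21, adjusted p = 0.0225), named after their values were seen, also fell, so that 3 casein kinase 1 genes of this list rose and 3 fell. DVL2 rose by 0.27 and the GSK3 inhibitor FRAT2 by 0.40. AXIN2, described below with the targets, is also in this list. The count that rose was 5 without siADAMTS12 replicate 2 or any 1 siCTL replicate and 4 without siADAMTS12 replicate 3; FRAT2 did not pass without siADAMTS12 replicate 3 (adjusted p = 0.0681) or siCTL replicate 3 (0.0619), nor CSNK1G3 without siADAMTS12 replicate 3 (0.0559). The count that fell was 1 without siADAMTS12 replicate 1 or 2 or siCTL replicate 2 or 3. CTNNB1, which encodes beta-catenin itself and was named after its values were seen, had 12398 ± 461 in siADAMTS12 cells and 12852 ± 1079 in siCTL cells (log2 fold change -0.05, adjusted p = 0.659).

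Of 18 tested genes of the beta-catenin nuclear complex, 6 rose and 3 fell. TCF7L1, a TCF that often represses, rose to 1591 ± 221 in siADAMTS12 cells, against 850 ± 121 in siCTL cells (log2 fold change 0.90 ± 0.12 SE, adjusted p = 0.00018). PYGO1, CBY1 and BCL9L rose by 0.39, 0.39 and 0.32, BCL9L not in a fit with no intensity trend (adjusted p = 0.0561). TLE5, a short member of the Groucho family, fell to 4846 ± 389 in siADAMTS12 cells, against 8681 ± 455 in siCTL cells (log2 fold change -0.84 ± 0.07 SE, adjusted p = 7e-06). HBP1, a repressor of TCF targets, was at -0.54 (adjusted p = 0.0003).

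Of 18 tested targets of beta-catenin and TCF, 4 fell and 1 rose, with a median log2 fold change of -0.10. With the replicate number as a block, 6 fell and 1 rose. DKK1, described above, is among those that fell, with cyclin D1 (CCND1), at 26917 ± 4352 in siADAMTS12 cells and 39110 ± 4726 in siCTL cells (adjusted p = 0.0065), CD44 (-0.36) and BIRC5 (-0.22). After quantile normalization CCND1, CD44 and BIRC5 did not pass (adjusted p = 0.147, 0.153 and 0.132). With no intensity trend CCND1 (0.0542) and BIRC5 (0.0737) did not pass. BIRC5 also did not pass without siADAMTS12 replicate 1 or 3 or siCTL replicate 1 or 2 (0.053 to 0.082). AXIN2, a common readout of beta-catenin activity, was the gene that rose, with 146 ± 15.0 in siADAMTS12 cells and 106 ± 5.69 in siCTL cells (adjusted p = 0.0293). Without siADAMTS12 replicate 2 or 3 or any 1 siCTL replicate AXIN2 did not pass (0.0531 to 0.0919), and the count that rose was 0; with no minimum mean it did not pass either (0.0547).

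Of 28 tested genes of planar polarity and beta-catenin-independent signalling, 5 rose and 3 fell. The stress kinase MAPK8 (JNK1) fell to 1727 ± 113 in siADAMTS12 cells, against 3013 ± 195 in siCTL cells (log2 fold change -0.80 ± 0.07 SE, adjusted p = 1.1e-05), and its 3' UTR held 2 copies of the longer seed match. RHOA (-0.30) and the calcineurin subunit PPP3CA (-0.27) also fell, RHOA not after quantile normalization (adjusted p = 0.22). MAP3K7, CELSR2 and SCRIB rose by 0.43, 0.39 and 0.48, and the 3' UTR of MAP3K7 held 1 copy of the longer match. The other tested genes of the 6 lists with this match were named after their values were seen. APC, AMER1 and DAAM2 held 2 copies each and were not called (log2 fold changes 0.18, -0.06 and -0.56). CSNK1A1 and BCL9, which fell, and VANGL2, which rose, held 1 copy each. So did LMBR1L, GSK3A, DACT3, TCF7L2, PRICKLE2, DAAM1, NFATC2 and NFATC4, which were not called. The count that fell was 5 without siADAMTS12 replicate 2 and 6 with the replicate number as a block.

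**Figure D5:**
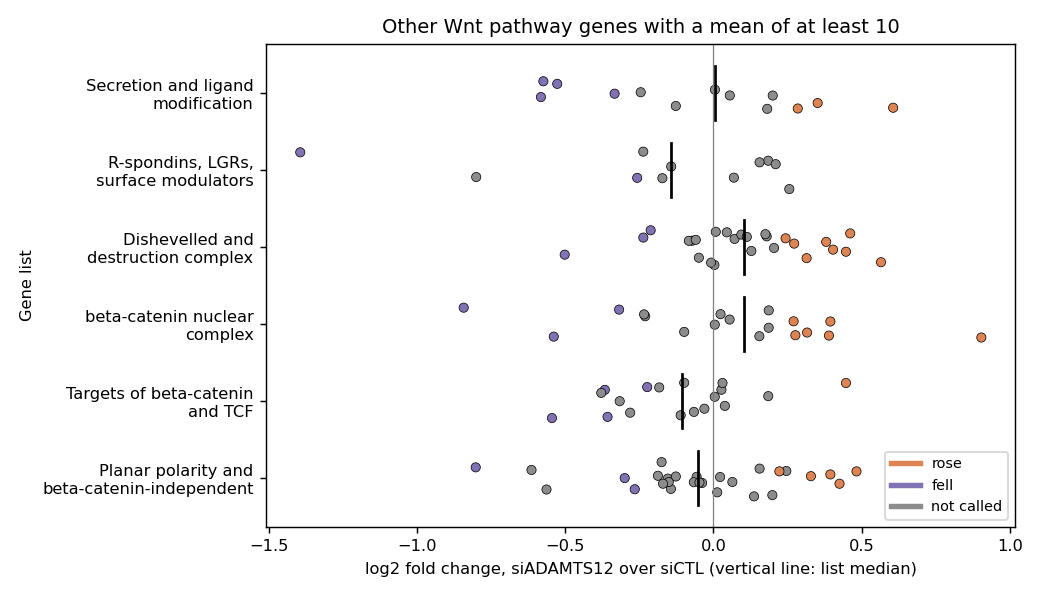
Log2 fold change of siADAMTS12 over siCTL for each tested gene of the 6 lists of other Wnt pathway genes, coloured by call, with vertical lines at the list medians and points spread vertically for legibility. KREMEN1 (-1.39) is the leftmost point and TCF7L1 (0.90) the rightmost.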

How the data were processed

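Poly(A) RNA from 3 siADAMTS12 and 3 siCTL libraries of LX-2 cells was sequenced. The deposited table is a score, normalized counts per gene as whole numbers, per the name of the file; the authors used STAR, HTSeq and DESeq2 with build GRCh38, per the submitters' processing notes. The sources used here name neither annotation nor strand setting, and no count model was fitted because the values are scaled and whole.

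Genes with a mean of at least 10 over the 6 libraries were analysed as log2(value + 1), which understates the fold changes of low genes. A linear model with group as its single term was fitted across the whole table (limma 3.58.1, R 4.3.3; lmFit, eBayes with intensity trend). P-values are 2-sided, with Benjamini-Hochberg adjustment across 15637 genes and a threshold of 0.05. The fit was tested on simulated data: of 15522 genes with 200 changed, in 5 draws the share recovered was 77.2% for log2 changes of 0.5 and 98.5% for log2 changes of 1, with 4.22% false calls. The simulation gave every gene the same extra spread and no link between libraries sharing a number. It also changed far fewer genes than were called here, so these rates may not hold for the real libraries.

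Deviations from the group means correlated between libraries sharing a number (0.37, 0.13 and 0.13, against -0.19 to 0.06 for different numbers), so a second fit took the replicate number as a block. Gene positions, exonic lengths and 3' UTRs of at least 30 bases came from GENCODE 29 on GRCh38; all 44 genes were matched by identifier. The transcript was chosen by its APPRIS principal tag, then the basic set, then the longest 3' UTR. All tested members of the 44 genes are named, and up to 6 genes past the threshold from each list, by adjusted p. The value of 1 stellate cell marker is not reported here. Members and lists were chosen with earlier results of these data known. Python 3.11.15, numpy 2.4.6, pandas 2.3.3 and matplotlib 3.10.9 were used.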

Additional observations from a re-analysis of the deposited data

How the results depend on the processing

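The 13 other fits used pseudocounts of 8 and 0.5, no minimum mean, a minimum of 50, quantile normalization, no intensity trend, the replicate number as a block, or 1 library fewer. The 8 calls among the Wnt genes were made in all 13, and the log2 fold change of ADAMTS12 ran from -1.88 to -1.69. The count of Wnt genes that rose was 2 without the trend (FZD3) and 1 to 2 without 1 library; 7 to 8 fell without 1 library, and 8 fell with no minimum, where WNT7A was added (log2 fold change -1.53, adjusted p = 0.045). With the replicate block, 1 Wnt gene rose and 7 fell, as without it. In the lists, the block gave 1 rise among the surface modulators and 6 falls each in planar polarity and the targets, and changed no other count by over 1.5 times. Without the trend, 1 surface modulator and 1 destruction complex gene fell, 3 nuclear complex genes rose and 2 targets fell. After quantile normalization, falls numbered 1 in the surface modulators, 1 in the destruction complex and 1 in the targets. With no minimum, 5 destruction complex genes and 0 targets rose. Without 1 library, the counts ran from 0 to 1 (rose) and 1 to 3 (fell) for surface modulators, 4 to 8 and 1 to 3 for the destruction complex, 0 to 1 and 3 to 4 for targets, 4 to 5 and 3 to 5 for planar polarity, and 4 to 6 and 2 to 3 for the nuclear complex. The share of all genes called was taken in the main fit only, so these counts have no such share beside them. Changes in the lists can therefore not be told from changes over all genes. The cause of these differences was not tested. Seed matches in the Wnt genes numbered 2 for positions 2 to 8, 3 over all transcripts and 10 for positions 2 to 7. The scarce genes WNT2B and FRZB had wider intervals (-0.72 to 1.51 and -0.53 to 0.47) than the abundant genes, and changes within them were not detectable.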
